A study of Mus musculus with 3 samples.

Results

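The genes described here are 10 acute phase and complement genes of the mouse, of the 22367 genes that GENCODE release M1 classes as protein-coding. They were chosen by name. They are Saa1 and Saa2 (serum amyloid A), Orm1 and Orm2 (orosomucoid), Hp (haptoglobin), Hpx (hemopexin), Crp (C-reactive protein), C3 and Cfb (complement) and Lcn2 (lipocalin 2). For each gene the binding of the retinoic acid receptor RARα and of the retinoid X receptor RXRα was read within 10 kb of the gene start and over the gene body. The study used ChIP-seq, in which chromatin is precipitated with an antibody and the bound DNA is sequenced, to find where RARα and RXRα lie in the liver genome. The 3 libraries came from livers of male wild type C57BL/6 mice aged 3 months, with 1 library precipitated for RXRα, 1 for RARα and 1 of input chromatin. No library had a replicate, so no test between libraries was possible, and each interval below is a 95% interval that covers counting error only. Whole liver was used, so weak binding in many cells and strong binding in few cells cannot be told apart.

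The acute phase response is the change in secreted plasma proteins that follows infection or injury. The liver makes most of these proteins, and interleukin-6 and interleukin-1 act on hepatocytes through STAT3, NF-κB and C/EBP factors to raise their transcription. RXRα forms heterodimers with RARα and other nuclear receptors, and these bind direct repeats of the hexamer AGGTCA, named DR1 to DR5 by the number of bases between the copies.

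The RXRα track held 9999939 reads and the input track 9999292 reads, spread as coverage over bins of 32 bp, so that a window can hold a fraction of a read. The totals are nearly equal, and the study reports more uniquely mapped RXRα reads than this track holds. How the tracks were brought to these totals is not given in the sources used here. Read counts and intervals below rest on the deposited totals. An RXRα region is a run of bins in which RXRα was at least 20 times the input, with the input set to no less than its genome mean of 0.603 per bin. The ratio of a region is that of its highest bin, and where this bin held 0 input the ratio rests on that floor. The RARα library was given as 143280 peaks, each with a score from 5 to 382, and its depth cannot be read from the list. A RARα peak and an RXRα region are called co-localized where they overlap by at least 25% of the narrower of them. Mitochondrial DNA took 3.64% of the input track and 0.261% of the RXRα track.

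All 10 genes had an RXRα region within 10 kb of the start, where 39.8% of all protein-coding genes had one. A RARα peak with a score greater than 20 lay within 10 kb of 8 of the 10, against 52.2% of all genes, and the exceptions were Saa1 and Saa2. Both bound at the same location in 7 of the 10, against 23.5% of all genes, and here Orm2 was missing as well. With no regard to location both were present within 10 kb of 8 of the 10, against 32.6% of all genes. A RARα peak of any score lay near all 10, against 67.3% of all genes. Within 1 kb of the start a RARα peak above 20 was found at 7 of the 10, against 40.9% of all genes, and an RXRα region at 9 of the 10, against 21.6%. The median of the highest RARα score was 50.5 over the 10 genes and 23 over all genes. The median ratio of RXRα to input within 1 kb of the start was 6.34 over the 10 genes and 1.37 over all genes. Input itself was higher near these genes, with a median of 1.14 per bin within 10 kb against 0.646 over all genes, and its part in the RARα scores was not tested.

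**Figure D1:**
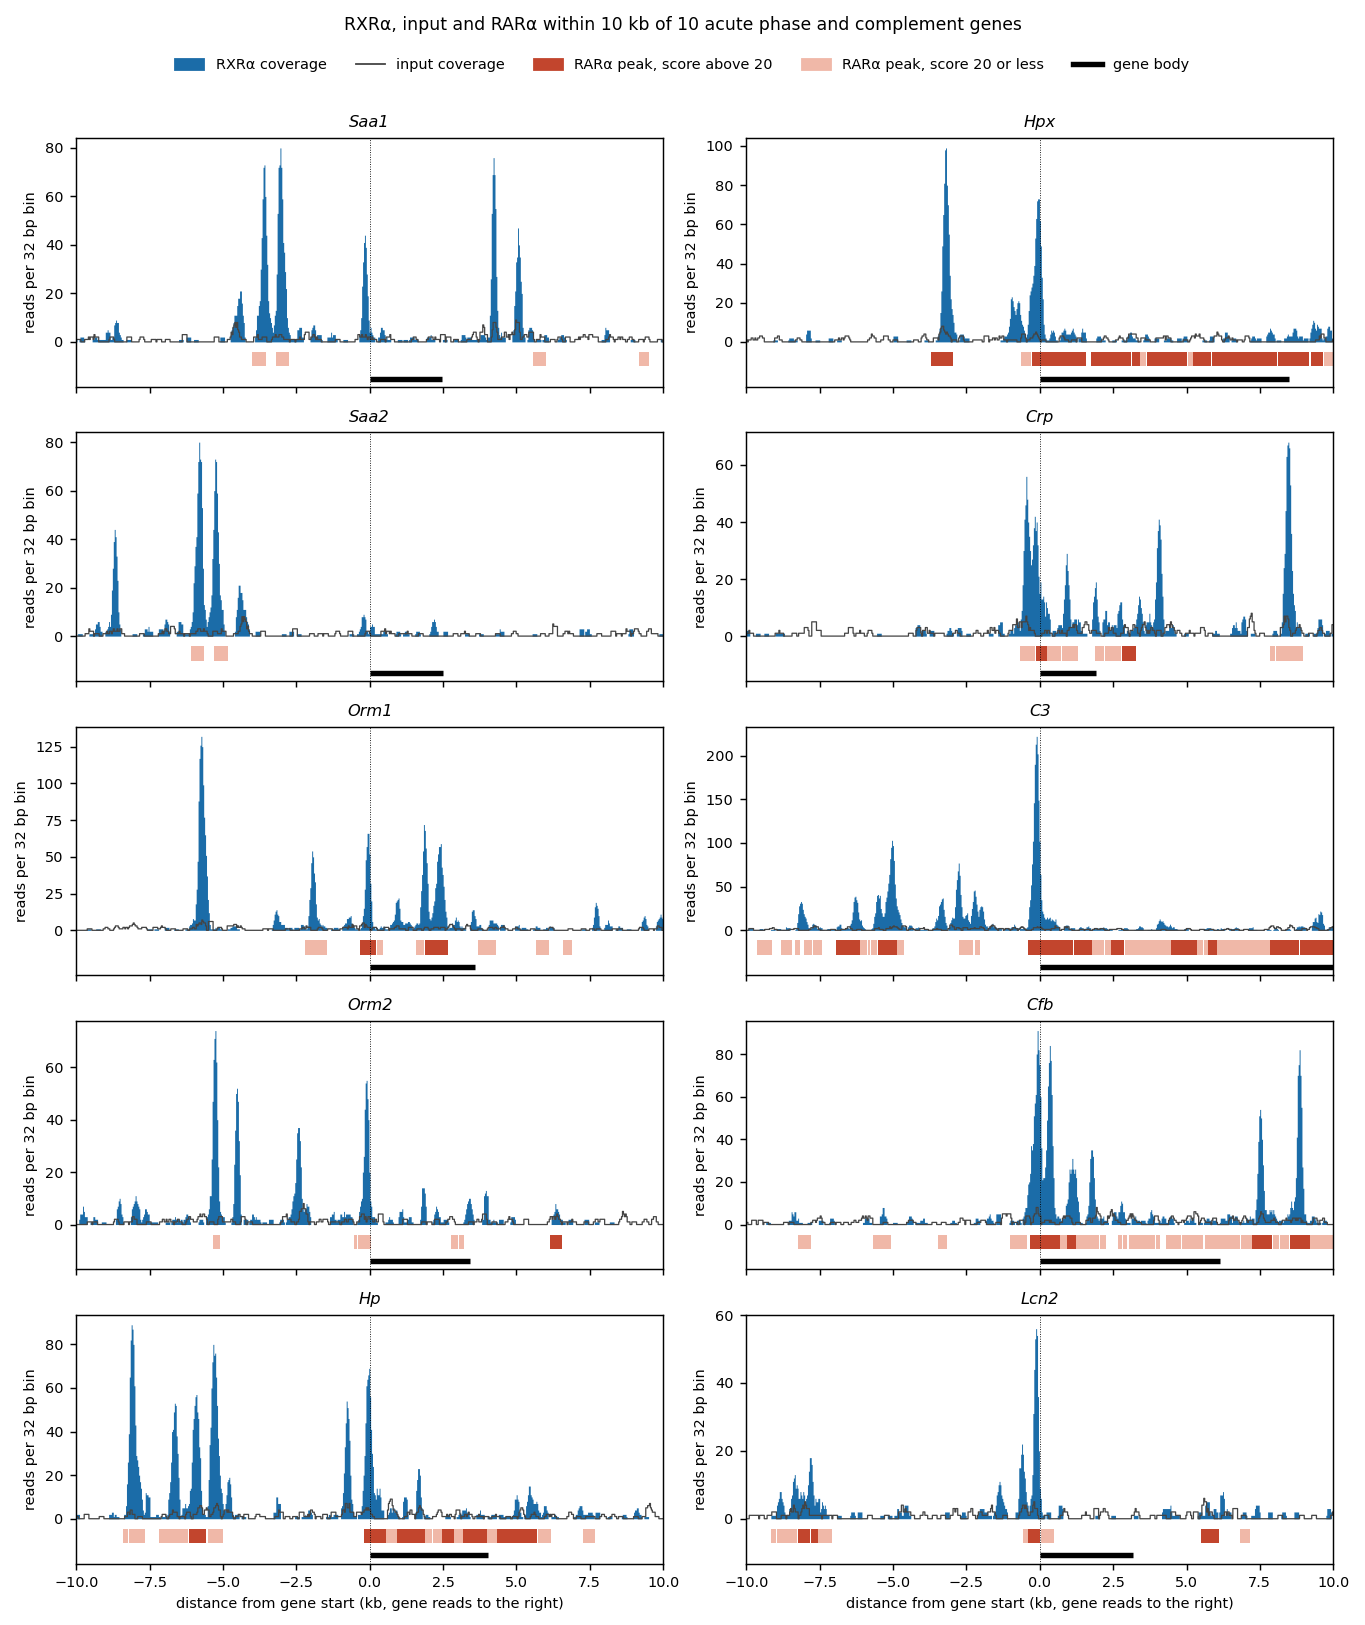
RXRα coverage (blue, reads per 32 bp bin) and input coverage (line) are plotted against the distance from the gene start in kb for the 10 genes, with every gene turned to read to the right. Bars under the axis are RARα peaks, dark where the score is above 20, and the black bar is the gene body, which for C3 runs past the window. RXRα stands in narrow peaks, while dark RARα bars run through the bodies of Hpx, Hp and C3 and are missing at Saa1 and Saa2.

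Saa1 and Saa2 encode serum amyloid A, an apolipoprotein of high density lipoprotein that rises steeply in inflammation. The genes lie on opposite strands of chromosome 7, with 8853 bp between their starts, Saa1 at chr7:53995871-53998350 on the minus strand and Saa2 at chr7:54007203-54009684 on the plus strand (NCBI37/mm9). Their promoters are near copies, and the 150 bases before each start were 97.4% identical, although over 1000 bases the identity was 61.2%, so they are printed here in the direction of each gene. The capitals mark direct repeats of AGGTCA with at most 2 mismatches, spacer included.
Saa1: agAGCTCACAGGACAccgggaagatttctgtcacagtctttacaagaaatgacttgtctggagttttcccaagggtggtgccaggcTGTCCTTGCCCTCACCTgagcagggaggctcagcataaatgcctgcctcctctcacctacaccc
Saa2: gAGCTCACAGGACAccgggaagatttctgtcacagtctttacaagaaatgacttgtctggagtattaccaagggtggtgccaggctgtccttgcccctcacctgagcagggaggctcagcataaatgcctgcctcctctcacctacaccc
Saa1 is taken from chr7:53998351-53998500 on the minus strand and Saa2 from chr7:54007053-54007202 on the plus strand. Both hold the same DR1, AGCTCAcAGGACA, centred 142 and 143 bases before the start, and both hold the C/EBP word TTGCacAA at 179 bases before the start.

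With these shared letters, RXRα formed a region at the Saa1 start and none at the Saa2 start. Within 1 kb of the start RXRα gave 64.4 reads at Saa1 against 12 input reads, a ratio of 5.37 with an interval of 2.85 to 10.9. At Saa2 RXRα gave 21.4 reads against 9 input reads, a ratio of 2.38 with an interval of 1.02 to 5.79. The intervals overlap, so the order of the ratios is not separated from counting error. Within 500 bp of the start the ratios were closer, with 6.93 (3.35 to 15.5) at Saa1 and 4.72 (2.77 to 7.38) at Saa2. An RXRα region lay 178 bases upstream of Saa1 over the C/EBP word, with 44 against 2 input in its highest bin. In the bin of the same word at Saa2, RXRα was 8 and input 0. Repeated sequence limits this comparison, since only 65.5% of the 36-base words around the Saa1 start and 67.4% of those around the Saa2 start occur a single time in the genome.

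The stretch between the Saa1 and Saa2 starts held the strongest RXRα binding of the pair. A region at chr7:54001793-54002080 reached 53.1 times input and a region at chr7:54001185-54001504 reached 37.0 times input. The RARα list had a peak on each, but with scores of 14 and 12, below the threshold of 20. RXRα was 17.3 times input over the first of these RARα peaks and 23.4 times over the second. Both values exceed 13.9, the median RXRα ratio of the RARα peaks above 20 at the starts of the other genes. The second region held a C/EBP word and the NF-κB word GGGAgtTTCC, 2880 bases upstream of Saa1. No RARα peak of any score overlapped the body of Saa1 or Saa2.

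Orm1 and Orm2 encode orosomucoid, the plasma glycoprotein that carries basic drugs and lipids. They lie on the plus strand of chromosome 4 with 17889 bp between their starts, Orm1 at chr4:63005594-63009197 and Orm2 at chr4:63023483-63026912. The 150 bases before the starts were 83.4% identical and are shown because they share the C/EBP word TTGCNNAA, here in capitals.
Orm1: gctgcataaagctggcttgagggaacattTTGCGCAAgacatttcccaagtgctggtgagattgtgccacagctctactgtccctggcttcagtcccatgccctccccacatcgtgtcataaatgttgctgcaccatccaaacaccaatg
Orm2: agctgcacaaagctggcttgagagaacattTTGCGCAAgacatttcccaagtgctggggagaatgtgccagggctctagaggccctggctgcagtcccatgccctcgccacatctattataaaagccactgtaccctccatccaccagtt
They are taken from chr4:63005444-63005593 and chr4:63023333-63023482 on the plus strand.

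RXRα covered this word at both genes, with 57 against 3 input in the bin at Orm1 and 55 against 1 at Orm2. The ratio within 1 kb of the start was 5.67 (3.65 to 9.54) at Orm1, from 127 RXRα reads over 22.4 of input. It was 4.82 (2.89 to 8.53) at Orm2, from 86.8 over 18 reads, so the RXRα level at the starts was not separable. RARα differed in the peak list. A peak with a score of 61 covered the Orm1 start, with RXRα at 9.83 times input, whereas the RARα peak over the RXRα region at the Orm2 start had a score of 13.

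Over the whole gene body Orm1 was higher than Orm2. Its body had 286 RXRα reads against 29 input reads, a ratio of 9.87 (6.72 to 14.99), and 99.8% of all genes had a lower one. The Orm1 intron held 2 RXRα regions of 89.6 and 57.0 times input. A RARα peak of score 28 covered the second and the end of the first, and RXRα was 20.9 times input over that peak. The highest bin of the first lay under another RARα peak, of score 16, over which RXRα was 37.7 times input. The Orm2 body had 51.8 RXRα reads against 17.4 input reads, a ratio of 2.98 (1.74 to 5.64) whose interval lies below that of Orm1. It held no RXRα region and no RARα peak above 20. Beyond the first 1 kb of the body the ratio was 11.5 (7.46 to 19.2) at Orm1 and 4.08 (2.07 to 9.39) at Orm2, and these intervals overlap. Of all genes with such a stretch, 97.2% had a lower ratio than Orm2 there.

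Orm2 had the highest RXRα ratio of the 10 genes, but at a location nearer to another start. The region at chr4:63018081-63018304 lay 5291 bases upstream of Orm2 in an intron of the related gene Orm3, with 74 RXRα and 0 input in its highest bin and a ratio of 123. The RARα peak there scored 16. This ratio rests on the floor set for the input. It held a DR4 with 1 mismatch to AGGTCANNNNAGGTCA, in capitals in these bases of the plus strand at chr4:63018163-63018212.
Orm2 upstream: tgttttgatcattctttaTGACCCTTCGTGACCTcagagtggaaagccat
The only RARα peak above 20 within 10 kb of Orm2 scored 27 in an intron of Akna, 6327 bases downstream of the start, and RXRα was 1.36 times input over it.

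Hp and Hpx encode haptoglobin and hemopexin, which bind free haemoglobin and free haem in plasma and return them to the liver. Hp lies at chr8:112099030-112103072 and Hpx at chr7:112740127-112748630, both on the minus strand. Each had a high RARα peak over its start, with a score of 136 at Hpx and 81 at Hp. RXRα was 19.2 times input over the Hpx peak and 16.3 times over the Hp peak. Within 1 kb of the start the ratio was 12.1 (7.57 to 21.7) at Hpx, from 211 RXRα and 17.4 input reads. At Hp it was 5.75 (4.0 to 8.40), from 206 RXRα and 35.8 input reads.

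Upstream of Hpx a second co-localized RARα peak scored 59, at chr7:112751601-112752330, with RXRα at 9.75 times input over its width. Of the direct repeats in the windows searched at the 10 genes, it held the only one with 0 mismatches, a DR4 (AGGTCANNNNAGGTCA) at chr7:112751858-112751873, 3236 bases upstream of the start. The RXRα region there, chr7:112751617-112751840, ended before the repeat. RXRα was 98 and input 5 in the bin of the repeat, just below the threshold of 20 times input. The bases around it are shown on the plus strand, chr7:112751796-112751895, where the DR4 appears in capitals as its reverse complement and the earlier capitals are overlapping DR1 words with 1 and 2 mismatches.
Hpx upstream: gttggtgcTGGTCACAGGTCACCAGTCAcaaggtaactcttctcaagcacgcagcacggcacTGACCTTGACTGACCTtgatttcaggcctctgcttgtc
A DR4 with at most 2 mismatches occurred within 100 bases of 2.44% of all 18093 RARα summits that passed the threshold within 10 kb. Near the 10 genes this was 1 of 57 summits, or 1.75%.

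Upstream of Hp RXRα formed a row of regions between 5392 and 8032 bases before the start. The highest reached 71.4 times input at chr8:112110945-112111264 and held the NF-κB word GGGAttTTCC, with a RARα score of 18. A region of 68.0 times input lay 5984 bases upstream under a RARα peak of score 27, and RXRα was 9.28 times input over that peak, which held 2 C/EBP words. The Hp start itself held the C/EBP word TTGCacAA across the first base of the gene.

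Crp encodes C-reactive protein, a pentraxin that binds phosphocholine and that responds weakly to inflammation in mice. It lies at chr1:174628187-174630097 on the plus strand. A RARα peak with a score of 84 covered the start, at chr1:174628051-174628431, and RXRα was 28.3 times input over it. Within 1 kb of the start there were 197 RXRα reads over 25.8 of input, which is 7.65 times (5.02 to 11.9). The other RARα peak above 20 scored 25 at 3068 bases downstream, where RXRα was 1.03 times input. RXRα regions without a RARα peak above 20 included those at 4069 and 8549 bases downstream, with ratios of 36.5 and 59.7. Neither the C/EBP, the NF-κB nor the STAT word occurred from 250 bases before to 50 bases after the Crp start.

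C3 encodes the central complement component that is cleaved in all activation pathways, and it lies at chr17:57343397-57367559 on the minus strand. The C3 start had the highest RARα score of the 10 genes, 142, and the highest RXRα to input ratio. RXRα gave 388 reads against 24.4 input reads within 1 kb of the start, a ratio of 15.9 (10.7 to 25.5), and within 500 bp the ratio was 38.8 (21.1 to 89.4). RXRα was 32.7 times input over the RARα peak. The highest bin near C3 held 222 RXRα. The bases before the start, chr17:57367560-57367709 on the minus strand, are shown with a C/EBP word in capitals, in whose bin RXRα was 149 and input 3.
C3: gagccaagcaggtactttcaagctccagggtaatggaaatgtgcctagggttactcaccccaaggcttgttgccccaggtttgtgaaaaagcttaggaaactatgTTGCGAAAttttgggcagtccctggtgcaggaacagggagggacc

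RXRα continued upstream of C3 in 6 further regions from 2249 to 8089 bases before the start. RARα peaks above 20 were co-localized with 2 of them, with a score of 38 and RXRα at 21.8 times input, and with a score of 24 and RXRα at 10.96 times input. The farthest, in a coding exon of Gpr108, held the DR1 AGGACAgAGGTCA with 1 mismatch, and a RARα peak of score 10 overlapped the end of this repeat. Across 10 kb on either side of the start the ratio was 8.12 (6.86 to 9.72), and 99.9% of all genes had a lower one.

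Cfb encodes complement factor B, the serine protease of the alternative pathway, at chr17:34993319-34999463 on the minus strand. It is overlapped by the transcripts of Gm20547 and lies beside C2, so its signal cannot be assigned to Cfb alone. Within 1 kb of the start there were 304 RXRα reads over 26.4 of input, which is 11.5 times (7.82 to 18.2). The RARα scores were modest beside this level, with 40 over the start region and 25 at 72 bases upstream. RXRα was 28.4 and 13.9 times input over these peaks. All 5 RARα peaks above 20 within 10 kb of Cfb were co-localized with RXRα, 2 of them nearer to the start of Rdbp. A region 1767 bases into the gene, under a RARα peak of score 20 and so just below the threshold, held the DR1 AGGTCAaGGGTCA with 1 mismatch, in capitals on the plus strand at chr17:34997675-34997724.
Cfb intron: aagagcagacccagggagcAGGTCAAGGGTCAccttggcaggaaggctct
The Cfb start was the only one of the 10 with the STAT word, TTCcagGAA, and held the NF-κB word GGGAaaTTCC 127 bases upstream, with 61 RXRα and 5 input in its bin.

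Lcn2 encodes lipocalin 2, which binds bacterial siderophores and withholds iron, and it lies at chr2:32240153-32243317 on the minus strand. The only RXRα region within 10 kb was 43 bases upstream of the start, at 36 times input, and a RARα peak of score 23 covered it with RXRα at 12.4 times input. Within 1 kb of the start there were 104 RXRα reads over 15 of input, which is 6.93 times (4.02 to 12.8). The body had 12 RXRα and 13.2 input reads, a ratio of 0.909 (0.385 to 2.19), and beyond its first 1 kb there were 2 RXRα against 9.2 input reads. The highest RARα score near Lcn2, 30, lay downstream of the gene and nearest to the start of 1110008P14Rik. There RXRα was 1.23 times input. A further pair of RARα peaks above 20 had summits 7743 and 7953 bases upstream, nearest to the start of Ptges2, with scores of 21 and 23. RXRα was 9.0 times input over the nearer, from 14.4 against 1.6 reads, and 3.34 times over the other. The NF-κB word GGGAcaTTCC lay 198 bases upstream, with 44 RXRα and 5 input in its bin.

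The order of the start ratios was C3, Hpx, Cfb, Crp, Lcn2, Hp, Orm1, Saa1, Orm2 and Saa2. Neighbours in this order had overlapping intervals throughout. The C3 interval lay above those of Hp, Orm1, Orm2 and Saa2.

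**Figure D2:**
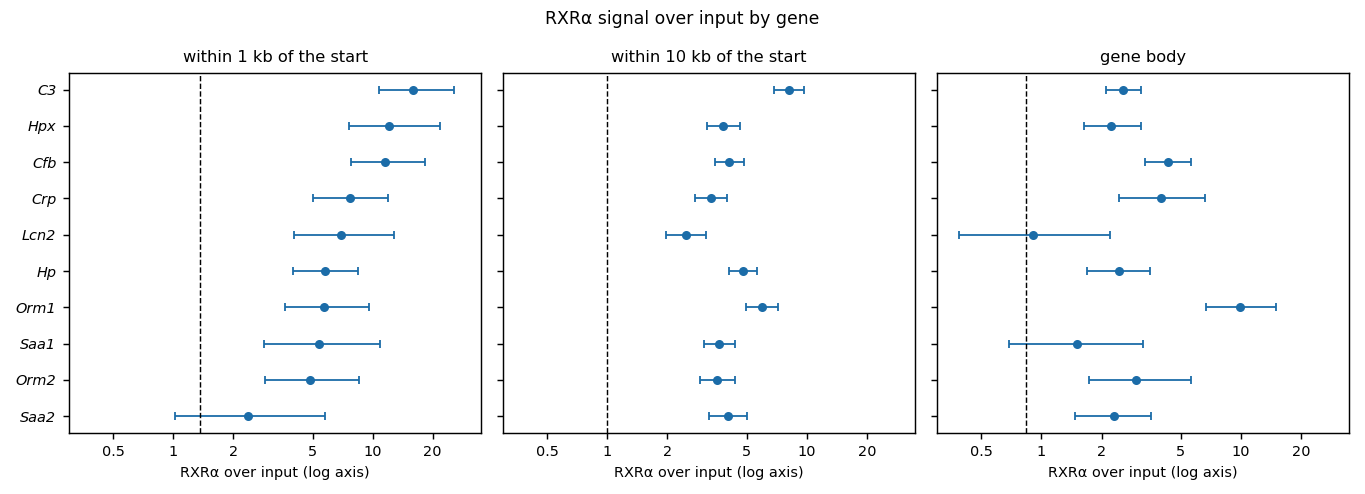
Points are the ratio of RXRα to input on a log axis within 1 kb of the start, within 10 kb of the start and over the gene body, bars are 95% intervals for counting error, and the dashed line is the median of all protein-coding genes. The C3 start is highest at 15.9 and the Orm1 body at 9.87, while the intervals of the Saa2 start and of the Saa1 and Lcn2 bodies reach the dashed line.

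Over the gene bodies RARα and RXRα were distributed differently. A RARα peak above 20 overlapped the body of 7 of the 10 genes, against 49.8% of all genes, and a peak of any score that of 8, against 64.7%. An RXRα region overlapped the body of 6 of the 10, namely Orm1, Hp, Hpx, Crp, C3 and Cfb, against 35.1%, and a co-localized RARα peak that of 7, against 20.9%. These counts include peaks and regions over the start. The further gene with a co-localized peak was Lcn2, where the peak at the start reached into the body but its RXRα region lay upstream. RARα peaks of any score covered 97.6% of the Hp body, 96.2% of the Hpx body and 94.5% of the C3 body, while the median over all genes was 1.84% and only 2.66% of genes were covered by more than 50%. At C3 there were 57 peaks over the body, 22 of them above 20. Many abutted, with the next peak starting 10 bp after the previous end, and joined runs reached 9961 bp at C3, 7440 bp at Hpx and 5900 bp at Hp. Cfb was covered to 85.7%, Crp to 67.8%, Orm1 to 41.3%, Lcn2 to 14.8% and Orm2 to 13.4%.

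RXRα over these bodies was low beside its level at the starts. Beyond the first 1 kb the RXRα to input ratio was 2.26 (1.83 to 2.80) at C3, 1.60 (0.988 to 2.56) at Hp and 1.41 (0.960 to 2.05) at Hpx. The median over the 19578 genes with such a stretch was 0.766. Of the RARα peaks above 20 there, 2 of 20 at C3 overlapped an RXRα region, 0 of 13 at Hpx and 0 of 6 at Hp. Over all genes 37.9% of the RARα peaks above 20 inside the gene with the nearest start, from 1 to 10 kb past that start, did so. The C3 count is of an unlike set, since it runs past 10 kb. Its 2 co-localized peaks lay 9279 and 9744 bases past the start. Orm1 differed from C3, Hp and Hpx, with a ratio of 11.5 (7.46 to 19.2) beyond the first 1 kb and a RARα cover of 41.3% over the body.

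RARα peaks at the starts and inside the genes differed in their RXRα level. Within 10 kb of the 10 genes there were 57 RARα peaks above 20. The 11 within 1 kb of a start had a median score of 40 and a median RXRα ratio of 13.9, and 8 of them were co-localized, against 32.04% of such peaks over all genes. The 29 further inside the genes had a median score of 27 and a median RXRα ratio of 1.56, and 4 were co-localized, against 37.9% over all genes. The 17 outside the genes had a median score of 26 and a median ratio of 5.50, and 7 were co-localized, against 31.9% over all genes. Over all genes the median scores of these classes were 41, 30 and 32 and the median ratios 4.72, 4.77 and 3.86. The classes are not fully alike, since over all genes a peak was placed by the gene with the nearest start. Near the 10 genes it was placed by the member. Of the 57 peaks, 52 had a member as the nearest start. The rest all fell in the class outside the genes, and were co-localized at Cfb but not at Lcn2. With the classes put together, 19 of the 57 peaks were co-localized, which is close to the 33.1% of all such peaks within 10 kb of a gene. The 29 peaks are not independent of each other, since most lie in the bodies of Hpx, C3 and Hp. In the opposite direction, 34 of the 48 RXRα regions near the 10 genes had a RARα peak of any score, and 19 had one above 20. Over all genes these shares were 65.6% and 39.4%.

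**Figure D3:**
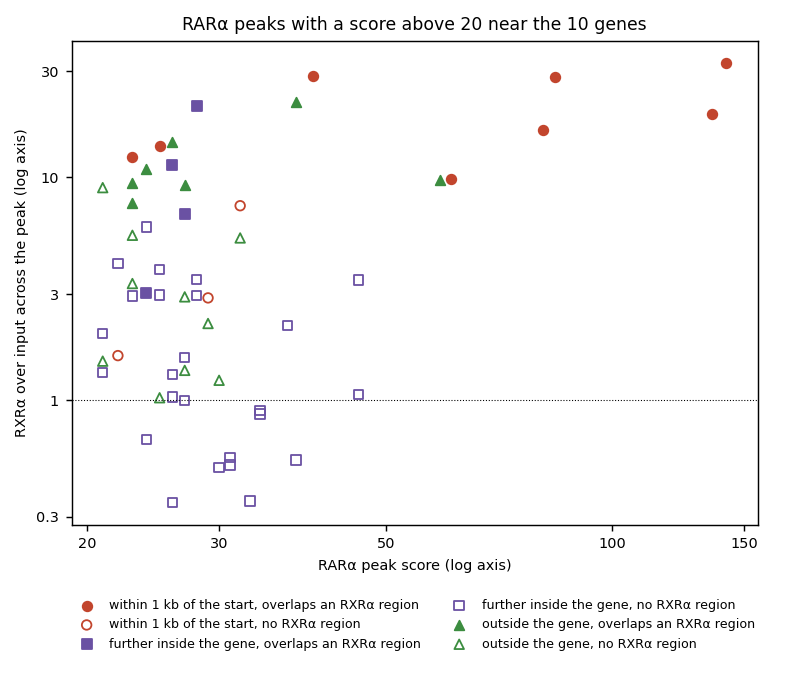
Each point is 1 of the 57 RARα peaks with a score above 20 within 10 kb of the 10 genes, with the score and the RXRα to input ratio across the peak on log axes. Shapes give the place of the peak and filled points overlap an RXRα region. Peaks within 1 kb of a start have a median ratio of 13.9, and peaks further inside a gene lie around the dotted line of equal signal, with a median of 1.56.

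The promoter words can be read against all genes. From 250 bases before to 50 bases after the start, the C/EBP word TTGCNNAA on either strand occurred at 8 of the 10 genes and at 10.3% of all protein-coding genes, with Crp and Cfb lacking it. The pairs Saa1 and Saa2, and Orm1 and Orm2, share their promoter sequence and so do not count separately. The NF-κB word, GGGA and TTCC with any 2 bases between, occurred at Cfb and Lcn2 and at 1.45% of all genes. The STAT word TTCNNNGAA occurred at 7.94% of all genes. A direct repeat DR1 to DR5 with at most 2 mismatches lay at 4 of the 10 starts, namely Saa1, Saa2, Hp and Hpx, against 11.7% of all starts. Around the highest bin of the RXRα regions such a repeat occurred in 14 of 48 windows of 100 bases to either side, or 29.2%, and in 25.9% of the windows of all regions within 10 kb. The C/EBP word lay in 10 of these 48 windows, or 20.8%, against 12.4% over all. At the 57 RARα summits it lay in 7.02%, against 6.96% over all. The NF-κB word lay in 2 of 48 and 2 of 57 windows, against 0.828% and 0.857% over all. The STAT word lay in 2 of 48 and 2 of 57, against 9.55% and 4.55% over all. The words are matches of letters only, and no factor was measured here other than RARα and RXRα.

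Companion genes of the same response were read by the same rules. Of 30 other acute phase genes, 24 had a RARα peak above 20, 28 an RXRα region and 22 both at the same location. The highest RXRα ratios were 149 at Il1rn (the interleukin-1 receptor antagonist), 144 at Fgb and 143 at Serpina1d. The highest RARα scores were 244 at Serpina3k, 194 at Fgg and 182 at Fga. The Serpina genes encode relatives of protease inhibitors, and Fga, Fgb and Fgg the chains of fibrinogen. Il1rn and Serpina1d were like Saa1 and Saa2 in that they had RXRα regions and no RARα peak above 20, with highest RARα scores of 17 and 12. The same held for Apcs, Hamp and Lbp, whose highest scores of 18, 19 and 20 lay just below the threshold. Cd14 and Hamp2 had no RXRα region.

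Of 29 other complement genes, 23 had a RARα peak above 20, 20 an RXRα region and 17 both at the same location. RXRα was highest at Mbl1 with 168, C1ra with 126 and Mbl2 with 107, which encode lectin and classical pathway proteins, and RARα at Clu with 247 and Vtn with 103, which encode inhibitors of complement. The 6 genes with neither were C1qa, C1qb, C1qc, C3ar1, Cd55 and Cfp. C1q is made mainly by macrophages, C3ar1 is a receptor of myeloid cells and Cfp encodes properdin of leukocytes. This does not cover Cd55, and a link between cell of origin and binding was not tested. C5ar1, another receptor gene of the list, had a RARα peak of score 28 within 10 kb. C1qa, C1qb and C1qc are neighbours whose windows overlap, so they do not count separately.

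Of 23 genes of the signalling that drives the response, 18 had a RARα peak above 20, 17 an RXRα region and 15 both at the same location. Cebpa had the highest RARα score, 268, followed by Cebpb with 216 and Socs3, the feedback inhibitor of STAT3, with 176. RXRα was highest at Nfkbia, which encodes the NF-κB inhibitor, with 119, then at Cebpa with 113 and Creb3l3 with 111. Hnf4a, Il6st, Nfkb1, Osmr and Relb had no RARα peak above 20 within 10 kb of the start. Over the gene bodies, Hnf4a had 25 such peaks, 10 of them co-localized, and Osmr had 1.

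Of 20 coagulation genes, 15, 17 and 14 had the RARα peak, the RXRα region and both at the same location. Proz, F5 and Kng1 had the highest RXRα ratios of 126, 114 and 106, and F2, F10 and Proz the highest RARα scores of 87, 60 and 59. Of 14 plasma carrier genes, the counts were 12, 13 and 9. Serpina6, which carries glucocorticoids, had the highest RXRα ratio of 196, followed by Ahsg with 106 and Apoa1 with 97.9, while Alb, Apoa1 and Trf had RARα scores of 221, 212 and 174. The shares at the 10 genes, 80.0%, 100% and 70.0%, stood beside 75.0% to 85.7% for RARα, 68.97% to 93.3% for RXRα and 58.6% to 73.3% for both over these other lists.

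Cell type markers differed in the same assay within 10 kb of the start. All 6 hepatocyte markers (Alb, Ttr, Apoa1, Apob, Tat and Cps1) had both factors at the same location. None of the 5 Kupffer cell markers (Clec4f, Cd5l, Vsig4, Emr1 and Marco) had either. Of 6 neutrophil markers Ngp and Elane had both, and of 5 stellate cell markers Lrat had the RARα peak and Pdgfrb the RXRα region. Of 5 endothelial markers 4 had the RARα peak, with Lyve1 lacking it, and 3 the RXRα region, with Clec4g and Stab2 lacking it. At the same location 0 of the 5 had both. Over the gene bodies Stab2 had 15 RXRα regions and 2 co-localized RARα peaks, and Pecam1 had 6 and 1. Clec4g, Kdr and Lyve1 had no co-localized peak over the body.

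**Figure D4:**
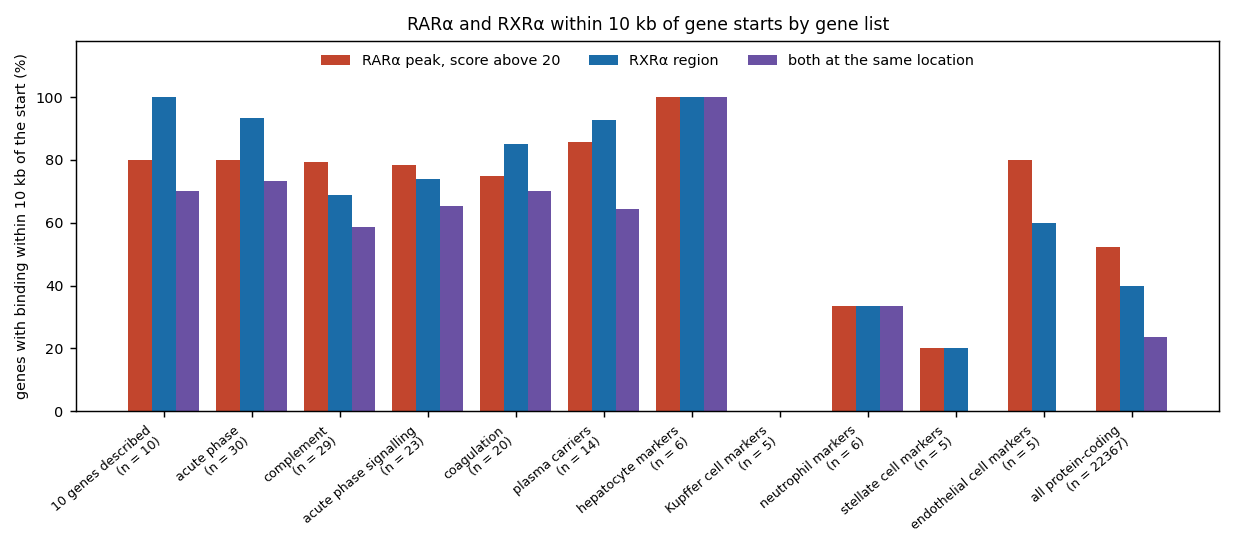
Bars from 0 give the percentage of genes in each list with a RARα peak of score above 20, an RXRα region, and both at the same location within 10 kb of the start, with the number of genes under each name. The 10 genes described stand at 80.0%, 100% and 70.0%, and all protein-coding genes at 52.2%, 39.8% and 23.5%, while the Kupffer cell markers are at 0.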

How the data were processed

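The authors aligned the reads with Bowtie and called RARα peaks with MACS. For RXRα and input they deposited a signal, which is whole-number coverage in bins of 32 bp with 5 bins a read. For RARα the authors deposited a peak list with a score and a false discovery rate in percent for each peak. The list does not say how the score was scaled, and the false discovery rate, at most 4.75%, was not used as a filter. The signal headers name mm9, and 0 peaks lay past a chromosome end of NCBI37, so genes came from GENCODE M1 and sequence from NCBI37.

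The 2 tracks were scaled to the same mean. Bins at or above 20 times the larger of local and mean input were kept, and bins within 200 bp were joined into RXRα regions. A RARα peak was kept with a score greater than 20 and a summit within 10 kb of the start, which is the gene's 5′ end. The thresholds follow the study's methods. Intervals are exact for a ratio of 2 Poisson counts. Genome words of 36 bases were counted for uniqueness. Motifs were searched on both strands 100 bases to either side of summits and highest bins. Where Trf had 2 records the longer was kept. C4a and Cebpd are not protein-coding in this annotation and were left out.

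The members and lists were chosen with earlier results of these data known. All 10 members are named, and of each list the 3 genes with the highest RXRα ratio and the 3 with the highest RARα score, and the genes of small counts, except that 1 gene is not reported here. The cover of gene bodies, the stretch beyond the first 1 kb, the joined runs and the classes of peaks by place were added after the data were seen. The scripts for regions and overlaps were checked on simulated tracks with known answers. No p-values were computed. Alternatives covered score, distance, fold over input, overlap, scaling and transcript starts. The tools were scipy 1.17.1, numpy 2.4.6, Biopython 1.88, pandas 2.3.3 and matplotlib 3.10.9 under Python 3.11.15.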

Additional observations from a re-analysis of the deposited data

How the results depend on the processing

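With a RARα score greater than 50 the count of the 10 genes with a RARα peak within 10 kb fell from 8 to 5, with Orm2, Cfb and Lcn2 lost beside Saa1 and Saa2, while 24.6% of all genes kept one. Co-localization then held for 5 of the 10, against 10.9% of all genes, and with no score threshold for all 10, against 31.2%. The count with an RXRα region was 9 or 10 under every alternative. The share of all genes with a region ran from 21.6% within 1 kb to 86.7% at 5 times input. Saa2 was the gene without a region within 1 or 5 kb or by nearest start. Of the other alternatives to the counts and median ratios, 32 stayed within the set limits. For single genes 8 of 80 alternatives moved by more than the counting interval, namely Hp, Crp and C3 within 500 bp of the start and Hp, Hpx, Crp, Cfb and Lcn2 in the body beyond its first 1 kb. All 8 came from a changed window. The rest of the 80 were mostly alternatives that could hardly move a ratio, so 8 of 80 does not measure stability. Without the input floor only the Saa2 body changed, from 2.30 to 2.35. Scaling without the mitochondrial chromosome lowered every ratio by the same small factor, as from 5.37 to 5.18 at the Saa1 start. Within 500 bp the median start ratio rose from 6.34 to 9.76, with 38.8 at C3, 13.8 at Crp, 10.4 at Hp and 4.72 at Saa2. No paired analysis was possible because each group had 1 library, and for the same reason no library could be left out. The peak list holds no read counts, so the RARα scores carry no error.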
